A study of Mus musculus with 4 samples.

Results

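Genes that mark the epithelium of the choroid plexus were followed in brain cortex of mice given TCQA, a tricaffeoylquinic acid, or water. A list of 35 gene symbols was chosen because several of its members had stood out, in an earlier look at these arrays, as lower after TCQA. Of these 35, 33 had a transcript cluster under their symbol, out of 19505 named genes on the array, and Enpp2 and Prlr had none. Each of the 33 had 1 transcript cluster. Because the TCQA and water values chose the list, those values are described here without a test on single members.

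All mice were male SAMR1, the strain bred as the normally ageing counterpart of the senescence-prone mice, and were kept singly for 4 months from the age of 7 months. At 11 months the TCQA group began 1 month of daily dosing by mouth at 5 mg/kg, and the control group received MilliQ water instead. Each group is represented by 2 Clariom S arrays of cortical RNA, 4 arrays in all. Nothing in the labels says whether an array held 1 mouse or a pool, so the spread between arrays may be technical, and their number limits the precision.

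The choroid plexus is a sheet of epithelium that lines folds of the brain ventricles, next to the cortex but not within it. It makes cerebrospinal fluid by moving sodium, bicarbonate, chloride and water from blood to ventricle, and it secretes carrier proteins and growth factors into that fluid. Its cells are held together by tight junctions and express simple-epithelium keratins, and the homeodomain factor Otx2 is known to maintain them. Several of its genes are shared with retinal pigment epithelium (Kcnj13, Slc16a8, Otx2), with neurons (Htr2c) or with other epithelia (Krt8, Krt18), so no single one marks it alone.

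The list holds 2 transcription factors with short, well-known core motifs, so the 250 bases before the annotated start of each gene were searched on both strands for TAATCC, the OTX2 core, and for TAATTG, an MSX core. Windows were found in RefSeq (GRCm38.p6) for 25 of the 33 genes. TAATCC stood before 3 of the 25 (Abca4, Car14 and Otx2 itself), 12.0% against 7.21% of all 27025 genes with a window, and TAATTG before 3 (Kcnj13, Otx2 and Tmem72), 12.0% against 8.30%. A match is a stretch of letters and was not measured as a bound site. The window of Kcnj13, a gene among those furthest below the water level, is shown whole, and the matches before Tmem72, Car14 and Abca4 as 30 bases (those before Otx2 are not shown), all 5′ to 3′ on the gene's strand with the match in capitals.
Kcnj13: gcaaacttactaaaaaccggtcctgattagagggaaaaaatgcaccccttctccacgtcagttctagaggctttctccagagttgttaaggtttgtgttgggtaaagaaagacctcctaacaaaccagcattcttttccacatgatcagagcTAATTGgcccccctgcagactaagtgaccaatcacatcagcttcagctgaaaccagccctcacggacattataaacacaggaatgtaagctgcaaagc
Tmem72: gacagaaacagcTAATTGccaactccaggc
Car14: atcctgcatgccTAATCCgctatttaagga
Abca4: gtaattagagggGGATTAtgcttgaagggg
These lie at chr1:87394730-87394979 (minus strand, inside the annotated span of Gigyf2), chr6:116716931-116716960 (minus strand), chr3:95904729-95904758 (minus strand) and chr3:122044390-122044419 (plus strand, where the match is on the opposite strand).

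Values are log2 signals, so that a difference of 1 is 2-fold. The negative control probe sets had a median of 6.98, and 21 of the 33 genes had a mean below it, so that their folds are uncertain in size. Only Ttr lay above the 95th percentile of the controls (11.06) in both groups. Markers of cortical excitatory neurons were bright, with 12 of 13 at or above the control median and 9 above the 95th percentile in both groups: Slc17a7, the vesicular glutamate transporter of cortical neurons, lay at 16.32 and 16.27 in the TCQA arrays and at 15.98 and 16.34 in the water arrays, and Actb, Gapdh and Hprt differed between the groups by 0.02, -0.09 and 0.26. Striatal markers were present as well, with 13 of 13 at or above the control median and 7 above the 95th percentile in both groups. Water 1 stood apart in its striatal markers, which averaged 12.59 there against 11.06 to 11.65 on the other arrays. TCQA 2 stood apart in its olfactory bulb markers, at 7.72 against 5.97 to 6.32.

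The choroid plexus genes were lower after TCQA as a list. A lower TCQA mean was found for 31 of 33, against 49.5% of all 19572 transcript clusters, and the median difference was -0.52 against 0.0028 over all clusters. Cldn2 and Perp were the exceptions. Both TCQA arrays lay below both water arrays for 17 of the 33, against 19.2% of all clusters, and 1 gene, Cldn2, had the opposite arrangement, against 19.9%. By the study's criteria, unadjusted p below 0.05 in limma with more than 2-fold between the means, 10 were lower, against 0.419% of clusters, and 13 were lower at that p alone, against 3.89%. Since the contrast chose the list, nothing is read from these shares. With Benjamini-Hochberg adjustment 0 of all 19572 clusters passed in limma, where 762 were lower and 681 higher at an unadjusted p below 0.05. Without water 1 the median was -0.22 and 24 genes were lower, and without TCQA 2 it was -0.53 and 30 were lower. In bulk tissue, less choroid plexus in the dissected sample, fewer choroid plexus cells and less RNA per cell cannot be told apart. How much choroid plexus each cortex sample held was not measured.

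**Figure D1:**
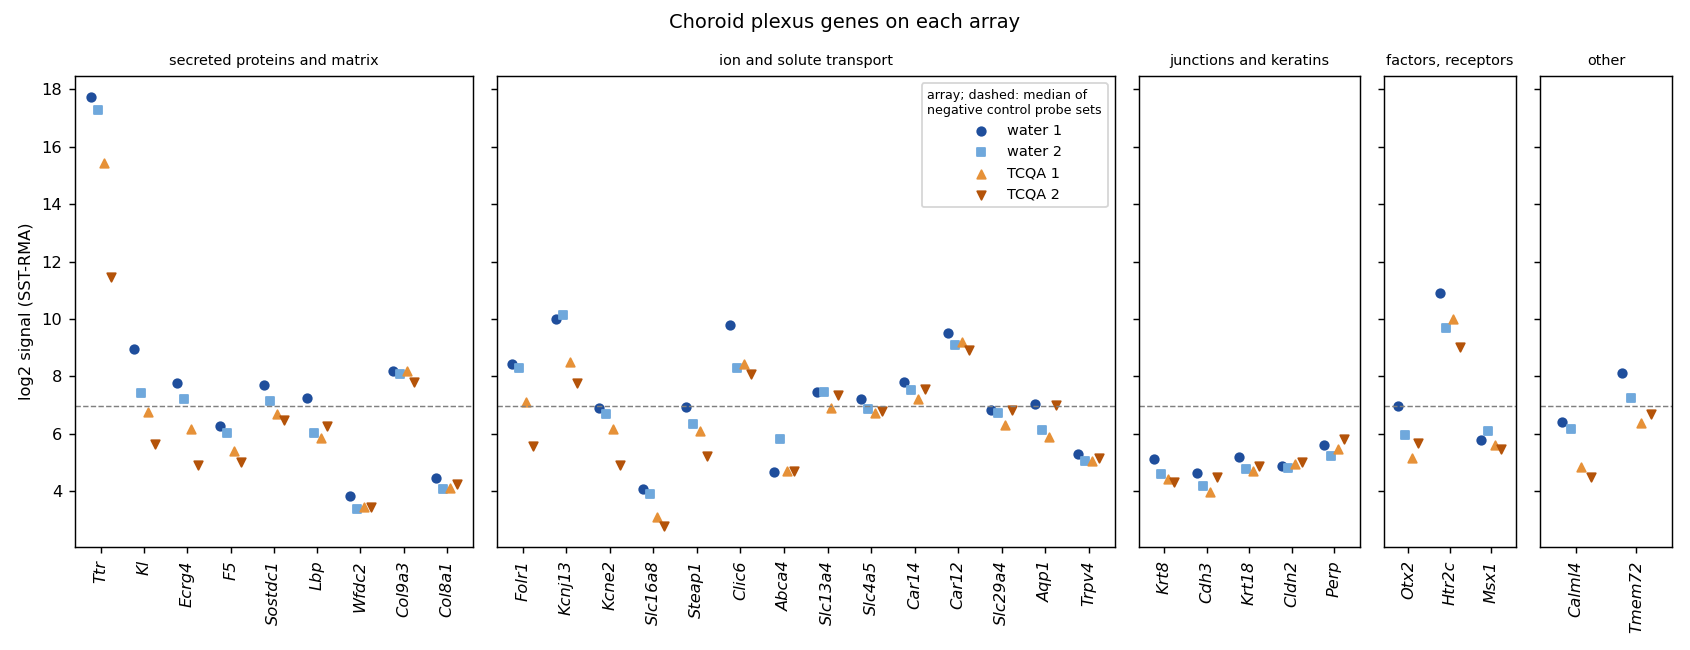
Log2 signal of the 33 choroid plexus genes on each of the 4 arrays, in panels by role and ordered within a panel by the difference between TCQA and water. The dashed line is the median of the negative control probe sets, 6.98. Ttr, Folr1, Kcnj13, Ecrg4 and Calml4 show both water arrays above both TCQA arrays, while the junction and keratin genes lie below the dashed line with arrays close together.

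Secreted proteins and matrix genes were lower in 9 of 9 measured, with a median difference of -0.82, or -0.54 without water 1. Ttr, which carries thyroxine and, with its binding protein, retinol, had a signal of 17.72 and 17.27 on the water arrays and of 15.42 and 11.46 on the TCQA arrays. Both TCQA arrays were below both water arrays, and they differed from each other by 3.95, far more than the 0.45 between the water arrays. The difference between the means was -4.06 (SE 1.12, n = 2 per group), a 16.6-fold lower level. It was -2.08 without TCQA 2 and -6.03 without TCQA 1. The water mean stood 4.23-fold above TCQA 1 and 65.5-fold above TCQA 2, so the size of the Ttr difference depends on which TCQA array is read.

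Kl encodes Klotho, the co-receptor of FGF23 whose outer domain is shed into cerebrospinal fluid. Its signal was 8.95 and 7.41 with water and 6.77 and 5.65 with TCQA. The groups did not overlap, although water 1 and water 2 were 1.54 apart and TCQA 1 was nearer to water 2 than water 1 was. The difference of -1.97 (SE 0.56, 3.90-fold) became -1.20 without water 1 and -1.40 without TCQA 2.

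Ecrg4, the precursor of a secreted peptide abundant in choroid plexus, had 7.77 and 7.20 with water and 6.17 and 4.91 with TCQA. All arrays kept to their groups, and the difference was -1.95 (SE 0.43, 3.86-fold), or -1.32 without TCQA 2. F5, coagulation factor V, had 6.25 and 6.01 with water and 5.41 and 5.01 with TCQA, a difference of -0.92 (SE 0.22) with both groups below the control median. Sostdc1, a secreted antagonist of BMP and Wnt signals, had 7.70 and 7.14 with water and 6.69 and 6.50 with TCQA, a difference of -0.82 (SE 0.25), or -0.54 without water 1. In these genes too the water arrays were the higher ones.

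The remaining secreted and matrix genes had overlapping groups. Lbp, which binds bacterial lipopolysaccharide, stood at 7.26 in water 1 and between 5.85 and 6.26 on the other arrays, so its difference of -0.59 (SE 0.41) was 0.03 without water 1. Wfdc2, a small whey acidic protein, differed by -0.18, and the collagen chains Col9a3 and Col8a1 by -0.15 and -0.10. Wfdc2 and Col8a1 lay below 5 on every array. Col9a3 stayed between 7.81 and 8.18 on the 4 arrays.

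Ion and solute transport genes were lower in 14 of 14, with a median difference of -0.42 (-0.24 without water 1), and the differences spanned -2.01 to -0.08. Folr1, the folate receptor through which folate reaches cerebrospinal fluid, had 8.44 and 8.28 with water and 7.12 and 5.58 with TCQA. The water arrays were close, the TCQA arrays 1.53 apart, and the difference was -2.01 (SE 0.47, 4.03-fold), or -1.24 without TCQA 2. Kcnj13, the inward rectifier Kir7.1 of the apical membrane, had 10.00 and 10.12 with water and 8.50 and 7.76 with TCQA. Both water arrays were well above both TCQA arrays, and the difference was -1.93 (SE 0.28, 3.82-fold), between -2.31 and -1.56 with any 1 array left out. Kcne2, a potassium channel subunit of the same membrane, had 6.89 and 6.67 with water and 6.15 and 4.91 with TCQA, a difference of -1.25 (SE 0.40) that was -0.63 without TCQA 2.

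Slc16a8, the lactate transporter MCT3, had 4.09 and 3.91 with water and 3.11 and 2.78 with TCQA, a difference of -1.05 (SE 0.21) at very low signal. Steap1, a membrane protein of the STEAP family, had 6.95 and 6.34 with water and 6.11 and 5.22 with TCQA. Its difference of -0.98 (SE 0.35) was -0.53 without TCQA 2. Just beyond 2-fold were thus Slc16a8 and Otx2, and just short of it Steap1 and F5. Clic6, an intracellular chloride channel protein, had 9.77 in water 1 against 8.28 in water 2, 8.41 in TCQA 1 and 8.09 in TCQA 2. Its difference of -0.78 (SE 0.46) rested on that array and was -0.03 without it.

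The genes of bicarbonate and water transport differed by less. Slc4a5, the sodium bicarbonate cotransporter NBCe2, had 7.21 and 6.88 with water and 6.73 and 6.78 with TCQA, a difference of -0.29 (SE 0.21). Car12 and Car14, carbonic anhydrases of the cell surface, differed by -0.23 (SE 0.23) and -0.28 (SE 0.23), with overlapping groups. Aqp1, the apical water channel, had 7.03 and 6.12 with water and 5.89 and 7.00 with TCQA, so that the arrays of each group were further apart than the means, which differed by -0.13 (SE 0.44). Slc13a4, a sulfate transporter, differed by -0.33 and kept both TCQA arrays just below both water arrays. Slc29a4, a monoamine transporter, differed by -0.22, and the cation channel Trpv4 by -0.08. Abca4, a retinoid flippase, was at 5.80 in water 2 and between 4.66 and 4.72 elsewhere, so its difference of -0.52 (SE 0.37) was 0.05 without water 2.

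**Figure D2:**
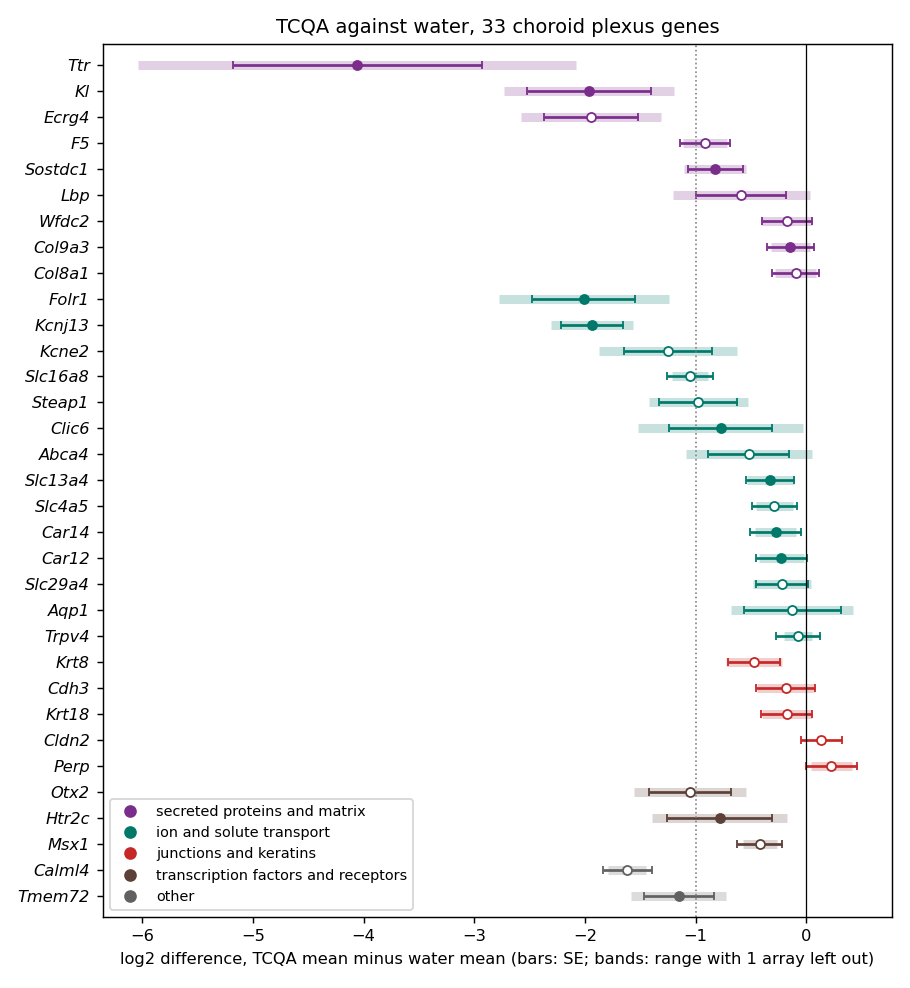
Log2 difference between the TCQA and water means for 33 genes, coloured by role. Bars are SEs from limma, pale bands the range when 1 of the 4 arrays is left out, open points genes with a mean below the negative control median, and the dotted line marks 2-fold lower. Ttr has the longest band, from -6.03 to -2.08, and the bands of Ttr, Kl, Ecrg4, Folr1, Kcnj13 and Calml4 stay beyond the dotted line.

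Of 5 junction and keratin genes measured, 3 were lower and 2 higher, with a median of -0.18, and all lay below the negative control median in both groups. Krt8, a keratin of simple epithelia, had 5.10 and 4.60 with water and 4.43 and 4.32 with TCQA, a difference of -0.47 (SE 0.23), and was the only one of the 5 whose TCQA arrays were both below both water arrays. Krt18, its partner, differed by -0.18 (SE 0.23) and the placental cadherin Cdh3 by -0.19 (SE 0.27), with overlapping groups. Cldn2, the claudin of leaky tight junctions, had 4.88 and 4.81 with water and 4.94 and 5.02 with TCQA, a difference of 0.13 (SE 0.19), and Perp, a desmosome protein, differed by 0.22 (SE 0.23). The median turned to 0.07 when TCQA 1 was left out and to 0.05 when water 1 was, and stood at -0.27 with TCQA 2 removed and at -0.40 with water 2 removed. Whether these genes differ from those of the other roles was not tested.

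Among regulators and receptors, Otx2 had 6.97 and 5.96 with water and 5.14 and 5.69 with TCQA. The groups did not overlap, but water 2 and TCQA 2 were close, and the difference of -1.05 (SE 0.37) was -0.54 without water 1. Msx1, a homeodomain factor of dorsal midline tissue, had 5.80 and 6.11 with water and 5.60 and 5.46 with TCQA, a difference of -0.42 (SE 0.21). Htr2c, the serotonin receptor that is abundant in choroid plexus but also in neurons, had 10.91 and 9.69 with water and 10.01 and 9.03 with TCQA. Its groups overlapped, and the difference of -0.78 (SE 0.47) was -0.17 without water 1. Calml4, a calmodulin-like protein, had 6.42 and 6.15 with water and 4.84 and 4.50 with TCQA. Its difference was -1.62 (SE 0.22, 3.07-fold), with a range of -1.79 to -1.45 when an array was left out. Both group means of Calml4 lay below the negative control median, as did those of Kcne2, Slc16a8 and Otx2. Tmem72, a membrane protein, had 8.12 and 7.26 with water and 6.37 and 6.70 with TCQA, a difference of -1.15 (SE 0.32), or -0.72 without water 1.

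The arrays of a group differed from each other in these genes as well. Water 1 lay above water 2 for 30 of 33 genes, by a median of 0.37, against 50.8% of all clusters, and it was the highest array for 28 of 33, against 27.0%. TCQA 2 was the lowest array for 17 of 33, against 26.7%, and TCQA 1 for 11. TCQA 1 lay above TCQA 2 for 19 of 33, against 49.9%. The full order water 1, water 2, TCQA 1, TCQA 2 was found for 11 of 33 genes, among them Ttr, Kl, Ecrg4, Folr1 and Calml4, against 5.92% of all clusters. Of the 10 genes over 2-fold lower, 8 had TCQA 1 above TCQA 2, the others being Otx2 and Tmem72. For these 10 the water mean exceeded TCQA 1 by 1.55-fold to 4.23-fold (median 2.50) and TCQA 2 by 1.72-fold to 65.5-fold (median 4.31). The TCQA mean lay below the negative control median for 8 of the 10, so their folds are uncertain in size. With 1 array on each side these orders have no test.

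**Figure D3:**
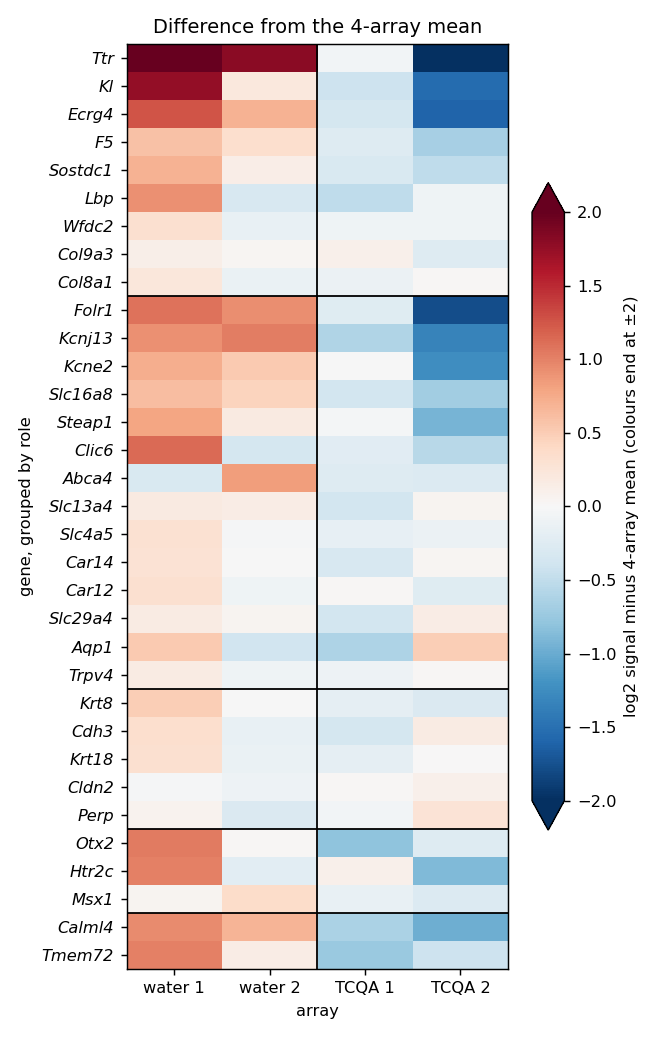
Log2 signal minus the 4-array mean of each gene, with arrays in columns and the 33 genes in rows grouped by role as in the plot of signals. Water 1 is above the mean for most genes, and TCQA 2 is furthest below it for Ttr, Folr1, Kl and Ecrg4. Clic6, Lbp and Htr2c stand above their mean mainly in water 1.

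A second list of choroid plexus genes, none of them in the first, was described in the same way. It was fixed with earlier results of these data known, from genes left out of the first list. Nothing is therefore read from how the 2 lists differ. Of 31 such genes 29 were measured, 17 lower and 12 higher after TCQA, with a median of -0.04. In limma 3 were lower and 1 higher at an unadjusted p below 0.05, against 3.89% and 3.48% of all clusters, and 0 passed after adjustment. Trpm3, a cation channel strongly expressed in choroid plexus and also in neurons, had 13.10 and 12.60 with water and 12.03 and 11.91 with TCQA, a difference of -0.88 (SE 0.23, limma adjusted p = 0.659). Ace, angiotensin-converting enzyme, had 8.61 and 7.94 with water and 7.26 and 7.44 with TCQA, a difference of -0.92 (SE 0.27, limma adjusted p = 0.664). Slc31a1, a copper importer, had 10.00 and 10.02 with water and 9.39 and 9.35 with TCQA, a difference of -0.64 (SE 0.18, limma adjusted p = 0.664). In these 3 genes the groups did not overlap, but Ace lost its unadjusted p below 0.05 without water 1 (-0.59) and Slc31a1 without TCQA 2 (-0.62), while Trpm3 kept it whichever array was left out. Slco1a5, an organic anion transporter, differed by 0.61 the other way, and its call ended when TCQA 1 (0.53), TCQA 2 (0.70) or water 1 (0.36) was removed. Several genes of this list are also expressed widely in cortex, such as Atp1b1, a subunit of the sodium pump, at -0.03, and Car2, a cytosolic carbonic anhydrase, at -0.33.

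Genes linked to the functions of the listed proteins had medians near 0. Their partners, among them thyroid hormone, LPA, FGF and folate receptors and carriers, were lower in 12 and higher in 23 of 35, with a median of 0.06. Of these only Fgfr3, a fibroblast growth factor receptor of astrocytes, was past an unadjusted p of 0.05 in limma, higher by 0.54 (SE 0.20, limma adjusted p = 0.673), a call lost without TCQA 2 (0.39), water 1 (0.57) or water 2 (0.51). That 1 of 35 stands against 3.48% of all clusters higher at that unadjusted p. Genes that respond to thyroid hormone, which Ttr carries, were higher in 10 of 11 with a median of 0.11. Water 1 was the lowest array for 7 of these 11, against 5196 of all 19572 clusters, so the count of higher genes leans on that array. Among them Stard4, a sterol carrier, was higher by 0.68 (SE 0.28, limma adjusted p = 0.673), or 0.32 without water 1. The list median was 0.31 without water 2. Retinoid genes were higher in 10 of 18 with a median of 0.05.

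Lists of neighbouring cell types and regions differed as follows, and their part in the choroid plexus result was not tested. Ependymal genes, of the ciliated lining next to the choroid plexus, were lower in 18 of 26 with a median of -0.32 (-0.19 without water 1), and 5 were lower at an unadjusted p below 0.05 in limma, led by Tekt1, a ciliary protein, at -1.19 (SE 0.30, limma adjusted p = 0.655), or -0.76 without water 1. All 5 lay below the negative control median of 6.98 in both groups, and 21 of the 26 had a mean below it, so that these folds are uncertain in size. The 5 genes stand against 3.89% of all clusters lower at that unadjusted p. Ccdc153, Hydin and Cfap126 among them no longer passed it without water 1, at -0.46, -0.58 and -0.61, nor with TCQA 1 removed, at -0.66, -0.40 and -0.63. Striatal genes, of a region beside the ventricle, were lower in 13 of 13 with a median of -0.69, and their mean was highest in water 1 (12.59) and lowest in TCQA 2 (11.06), as was the mean of the 33 choroid plexus genes (7.20 and 6.05). With TCQA 2 removed the striatal median was -0.38. Without water 1 it was -0.03, against -0.22 for the choroid plexus genes. Thalamic genes had a median of -0.64 (9 of 13 lower), or -0.16 without water 1. In limma 3 of them were lower at an unadjusted p below 0.05, against 3.89% of all clusters. Of these Prkcd, a protein kinase C, was past the study's criteria, against 0.419% of clusters lower by them. It differed by -1.99 (SE 0.70, limma adjusted p = 0.673), or -1.20 without water 1. Cortical excitatory neuron genes were higher in 11 of 13 with a median of 0.28, or -0.04 without water 1. In limma 2 of them were higher at an unadjusted p below 0.05, against 3.48% of all clusters. Of these Fezf2, a transcription factor, was past the study's criteria, against 0.245% of clusters higher by them. It differed by 1.17 (SE 0.46, limma adjusted p = 0.673), or 0.44 without water 1.

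Vascular, stromal and other lists had medians between -0.19 and 0.35. They were 0.23 for endothelium (10 of 12 higher), 0.10 for meningeal and stromal fibroblasts (10 of 16 higher), -0.03 for border macrophages (7 of 11 lower) and 0.17 for the 3 measured blood genes (2 higher). In limma 3 endothelial genes were higher and 1 lower at an unadjusted p below 0.05, and 3 fibroblast genes were higher. These counts stand against 3.48% of all clusters higher and 3.89% lower at that p. Mrc1, the mannose receptor of border macrophages, had 8.68 and 7.46 with TCQA and 6.54 and 6.57 with water, a difference of 1.51 (SE 0.39, limma adjusted p = 0.655), or 0.90 without TCQA 1. Slc2a1, the glucose transporter of brain endothelium, had 14.87 and 14.97 with TCQA and 14.19 and 14.13 with water, a difference of 0.77 (SE 0.19, limma adjusted p = 0.642). In both genes the TCQA arrays lay above the water arrays, and Mrc1 was past the study's criteria, against 0.245% of clusters higher by them. With TCQA 2 removed the fibroblast median was -0.01, the blood median -0.06 and the border macrophage median 0.05, and without water 1 the blood median was -0.26. Olfactory bulb genes had a median of 0.35 (7 of 10 higher), which was -0.13 without TCQA 2 and 1.31 without TCQA 1, and the hippocampal median was -0.07, or 0.05 without TCQA 2. The median was -0.13 for pineal, habenula and hypothalamus (7 of 10 lower), or 0.03 without water 1, and -0.19 for retinal pigment epithelium (8 of 10 lower). In the last list Pmel, a melanosome protein, was lower by 0.79 on the log2 scale (SE 0.20, limma adjusted p = 0.655), at signals of 4.24 to 5.23.

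**Figure D4:**
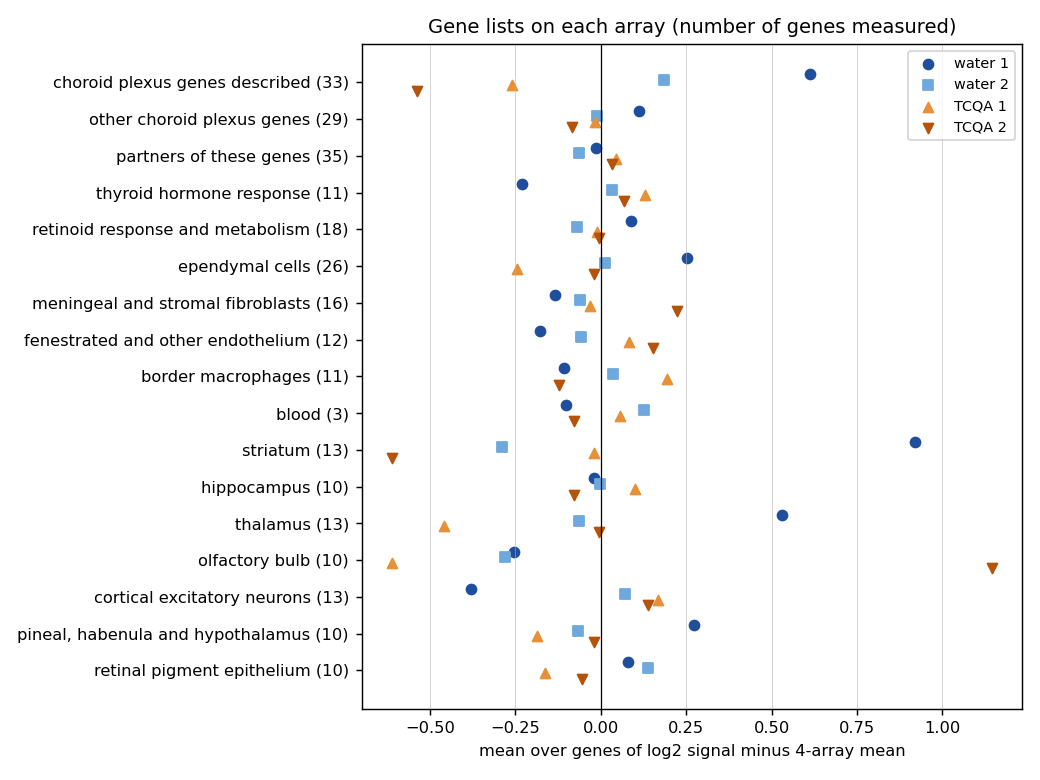
Mean over the genes of a list of the log2 signal minus each gene's 4-array mean, for the 33 choroid plexus genes and 16 other lists, with 1 point per array. The choroid plexus genes run from 0.61 in water 1 to -0.54 in TCQA 2, and the striatal genes from 0.92 to -0.61 on the same arrays. The second list of choroid plexus genes stays between -0.08 and 0.11 on every array.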

How the data were processed

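RNA of 4 cortex samples, 100 ng per array, went onto Clariom S arrays for mouse, per the labels' protocols and the design text. For each transcript cluster the table holds a log2 signal that the authors deposited after SST-RMA normalisation (Transcriptome Analysis Console, version 4.0.2, according to the series' design text). That step equalises the arrays, so total signal cannot be compared. The array's genome build: not given in the sources used here.

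Symbols were taken from the platform annotation. The 19572 named clusters were fitted in limma (version 3.58.1, R 4.3.3; lmFit and eBayes, 2-sided, no block), with Benjamini-Hochberg adjustment over all of them, and the model was tested on simulated data. Alternatives changed normalisation, centring, variance prior, array weights, dim-signal filters and a replicate block, and left out each array. Promoter sequences are RefSeq's on GRCm38.p6. Figures used matplotlib 3.10.9.

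The 35 genes and all lists were chosen with earlier results of these data known. All 35 are named. Of other lists, genes came from the 4 with the smallest p, except Slc17a7, Atp1b1 and Car2, which were chosen after their values were seen, and Actb, Gapdh and Hprt served as control genes.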

Additional observations from a re-analysis of the deposited data

How the results depend on the processing

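Of 33 choroid plexus genes 23 kept their sign in all fits with 1 array left out, and 10 did not, among them Aqp1, Lbp, Abca4 and Col9a3. With 1 array left out, the lone array of a group is assumed to vary like the other group. The number of choroid plexus genes lower then ranged from 24 to 30, their median from -0.73 to -0.22, those lower at the unadjusted p from 10 to 17, and those past the study's criteria from 7 (without water 1) to 16 (without water 2). All clusters past these criteria ranged from 218 to 428 against 130, those lower at the unadjusted p from 535 to 962, and the median of the second choroid plexus list from -0.094 to -0.013.

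Among the 12 genes with a mean at or above the negative control median, 12 were lower with a median of -0.80, 6 at the unadjusted p and 5 past the criteria. Of the 9832 clusters with such a mean, 44 passed the criteria and 267 were lower at that p. The second list had a median of -0.064 there. In the upper 50 percent of signal the choroid plexus counts were 11, 5 and 5 with a median of -0.78. Those of the clusters kept by that filter were again 44 and 267, and the median of the second list was -0.064. Here fewer genes were tested. Both filters use the mean of all 4 arrays. Kl, Sostdc1, Folr1 and Tmem72 had TCQA means below the control median and passed the first filter only through the water arrays. They are among the genes lower at that p, so these counts give no check on dim signal. Without the empirical Bayes step 3 choroid plexus genes passed the criteria, 3 were lower at the unadjusted p, and 55 of all clusters passed. Under quantile normalisation the second list had a median of -0.081.

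Over all clusters same-numbered arrays did not deviate together (r = -0.0032 across genes). With 2 arrays per group, every pairing gives this value or the same value with its sign turned. In the striatal list array 1 lay above array 2 for 13 of 13 genes in both groups. In the olfactory bulb list it did so for 5 of 10 with water and 1 of 10 with TCQA. Whether the replicate numbers pair the arrays was not tested. With the replicate block 15 choroid plexus genes were lower at the unadjusted p and 10 passed the criteria. Of all 19572 clusters 793 were lower at that p and 130 passed the criteria. Since the contrast chose the list, nothing is read from the counts of choroid plexus genes under any of these settings.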
